A study of Mus musculus with 4 samples.

Results

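The MHC class I presentation genes described here are H2-K1, H2-D1, B2m, Tap1, Tap2, Tapbp, Psmb8, Psmb9 and Nlrc5, 9 of the 14804 genes with a listed m6A peak. They were chosen by gene symbol for their role in class I presentation, without a rule on their values but with earlier results of these data known. They held 24 of the 38697 peaks listed in Mettl3 cKO macrophages and 26 of the 36507 listed in WT macrophages, and 15 of the 10355 differential peaks. All 9 had an input level, among 7307 genes with one.

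The data are m6A sequencing of mouse bone-marrow-derived macrophages of strain C57BL/6, grown with M-CSF (the macrophage growth factor) for 7 days and then kept with MC38 colon carcinoma cells for 24 h. The cKO carried LysM-cre with Mettl3fl/fl, and the WT carried Mettl3fl/fl without the Cre, so both had loxP-flanked Mettl3, which encodes the methyltransferase for N6-methyladenosine (m6A) in mRNA. The lysozyme M promoter drives Cre in myeloid cells and not in the MC38 cells. Each genotype had 1 library of RNA bound by an m6A antibody (IP) and 1 of unselected RNA (input).

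With 1 library of each kind, no difference below has a replicate check, and the read depth behind the values is unknown. Mettl3 had no differential peak and so no input value; 4 Mettl3 peaks were listed in the cKO and 2 in the WT, and none of these values checks the deletion. Of 10 macrophage markers, 9 had an input value, and their summed FPKM (fragments per length of transcript and per size of library) was 3354 in the cKO and 4918 in the WT, Lyz2, the gene that carries the LysM-cre insertion, alone giving 1980 in the cKO and 3393 in the WT. Without Lyz2 the sum was 1374 FPKM in the cKO and 1525 FPKM in the WT, with 6 of the 8 markers lower in the cKO. Adgre1, which encodes F4/80, was at 162 FPKM in the cKO and 220 FPKM in the WT. Of 8 mesenchymal markers, 6 had a value and summed to 195 FPKM in the cKO and 109 in the WT, with 4 of the 5 markers at a mean of at least 1 FPKM higher in the cKO. Of the epithelial and colon carcinoma markers, Krt19 was at 10.8 FPKM in the cKO and 7.05 FPKM in the WT. Of 7 neutrophil markers, S100a8 was at 13.7 FPKM in the cKO and 12.3 FPKM in the WT and Retnlg at 8.27 FPKM in the cKO and 9.38 FPKM in the WT, and the other 5 had no value. The only lymphoid marker with a value of 7, Cd79a, was below 1 in both, and the only dendritic cell marker with a value of 7, Clec9a, was at 1.29 FPKM in the cKO and 1.53 FPKM in the WT. In such mixed bulk RNA, fewer cells of a type and less RNA per cell cannot be told apart, and the part of these marker differences in the class I values was not tested.

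MHC class I molecules carry peptides from inside the cell to its surface, where CD8 T cells read them. The immunoproteasome cuts proteins into peptides, the TAP transporter moves these into the endoplasmic reticulum, and tapasin helps load them onto a heavy chain paired with beta-2-microglobulin. NLRC5 drives transcription of most of these genes, and interferon-gamma raises them in macrophages. m6A lies mostly near stop codons and in 3′ UTRs, at a short motif around the methylated adenosine, and readers of the mark can shorten or lengthen the life of a transcript.

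Stretches of the members' peaks that the results turn on are printed here from the GENCODE M21 transcripts (mm10), 5′ to 3′ along the RNA in DNA letters, with the motif DRACH in capitals (D is A, G or T; R is A or G; H is A, C or T). In each peak save the H2-D1 3′ UTR one the motif nearest the middle of the part listed in both genotypes was taken, with those that hold GGAC preferred. The H2-K1 and H2-D1 3′ UTR stretches are aligned positions of the similar heavy chain genes, set by the H2-K1 motif. The H2-D1 5′ UTR stretch comes from the peak with the widest gap between genotypes, the Tapbp stretch from the strongest peak, and the Psmb8 stretch from a 3′ UTR peak that was higher in the cKO. B2m is shown because the part of its peak shared by both genotypes held no GGAC.
H2-K1 3′ UTR: ccctctacaccaGGACCctgtccctgcac
H2-D1 3′ UTR: ccctgcacaccaGGACCctatccctgcac
H2-D1 5′ UTR: agtcaccacgacAAACTgctctctgtccg
Tapbp 5′ UTR: ctctgtttgctgGGACCtggcacaggtct
Psmb8 3′ UTR: ctcagagacctgGGACTacttcagtctta
B2m 3′ UTR: atataattttaaGAACAatagttgatcat

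The H2-K1 stretch is at chr17:33996295-33996323 on the minus strand, with its motif adenosine 163 bases after the last coding base. The aligned H2-D1 stretch is at chr17:35267018-35267046 on the plus strand, 162 bases after the last coding base. They share 26 of 29 bases and differ by C5G, T6C and G20A (the H2-K1 base, the position from the 5′ end of the stretch, the H2-D1 base), so the GGACC itself is the same in both. The H2-D1 5′ UTR stretch is at chr17:35262827-35262855, the Tapbp stretch at chr17:33919344-33919372, the Psmb8 stretch at chr17:34201315-34201343 and the B2m stretch at chr2:122152856-122152884, all on the plus strand. B2m lies on chromosome 2, Nlrc5 on chromosome 8 and the other genes on chromosome 17.

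A DRACH motif was found in all 21 cKO peaks of the members with bases on the exons of the representative transcript, and in 23 of the 24 such WT peaks; over all such peaks the shares were 95.7% in the cKO list and 95.7% in the WT list. The narrower GGAC was in 20 of 21 cKO peaks and 21 of 24 WT peaks, 95.2% and 87.5%, against 67.3% and 67.6% over all peaks of the cKO and WT lists. The members' peaks were longer, at a median of 450 exonic bases in the cKO and 386 in the WT, against 334 and 329 over the whole lists, and a longer peak has more room for a motif. Per kilobase of exonic peak, GGAC occurred 6.85 times in the cKO and 6.39 times in the WT among the members, against 4.39 and 4.42 over all peaks. A match describes the letters only.

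Both genotypes carried m6A peaks on every one of the 9 genes. Nlrc5 had 4 in the cKO and 5 in the WT, and B2m had 1 in each. H2-K1 had 4 in the cKO and 3 in the WT, H2-D1 had 4 in each, and Tap1 and Psmb9 had 3 in each. Tap2 had 1 in the cKO and 2 in the WT, Tapbp 2 in the cKO and 3 in the WT, and Psmb8 2 in each. By the authors' annotation, 11 of the 24 cKO peaks and 11 of the 26 WT peaks were in 3′ UTRs, 45.8% and 42.3%, against 55.7% and 56.2% of the whole lists. In 5′ UTRs there were 5 in each genotype, 20.8% in the cKO and 19.2% in the WT, against 9.09% and 9.04% of the lists. A further 6 cKO peaks and 9 WT peaks were exonic, 25% and 34.6%, against 22.7% and 22.9% of the lists.

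**Figure D1:**
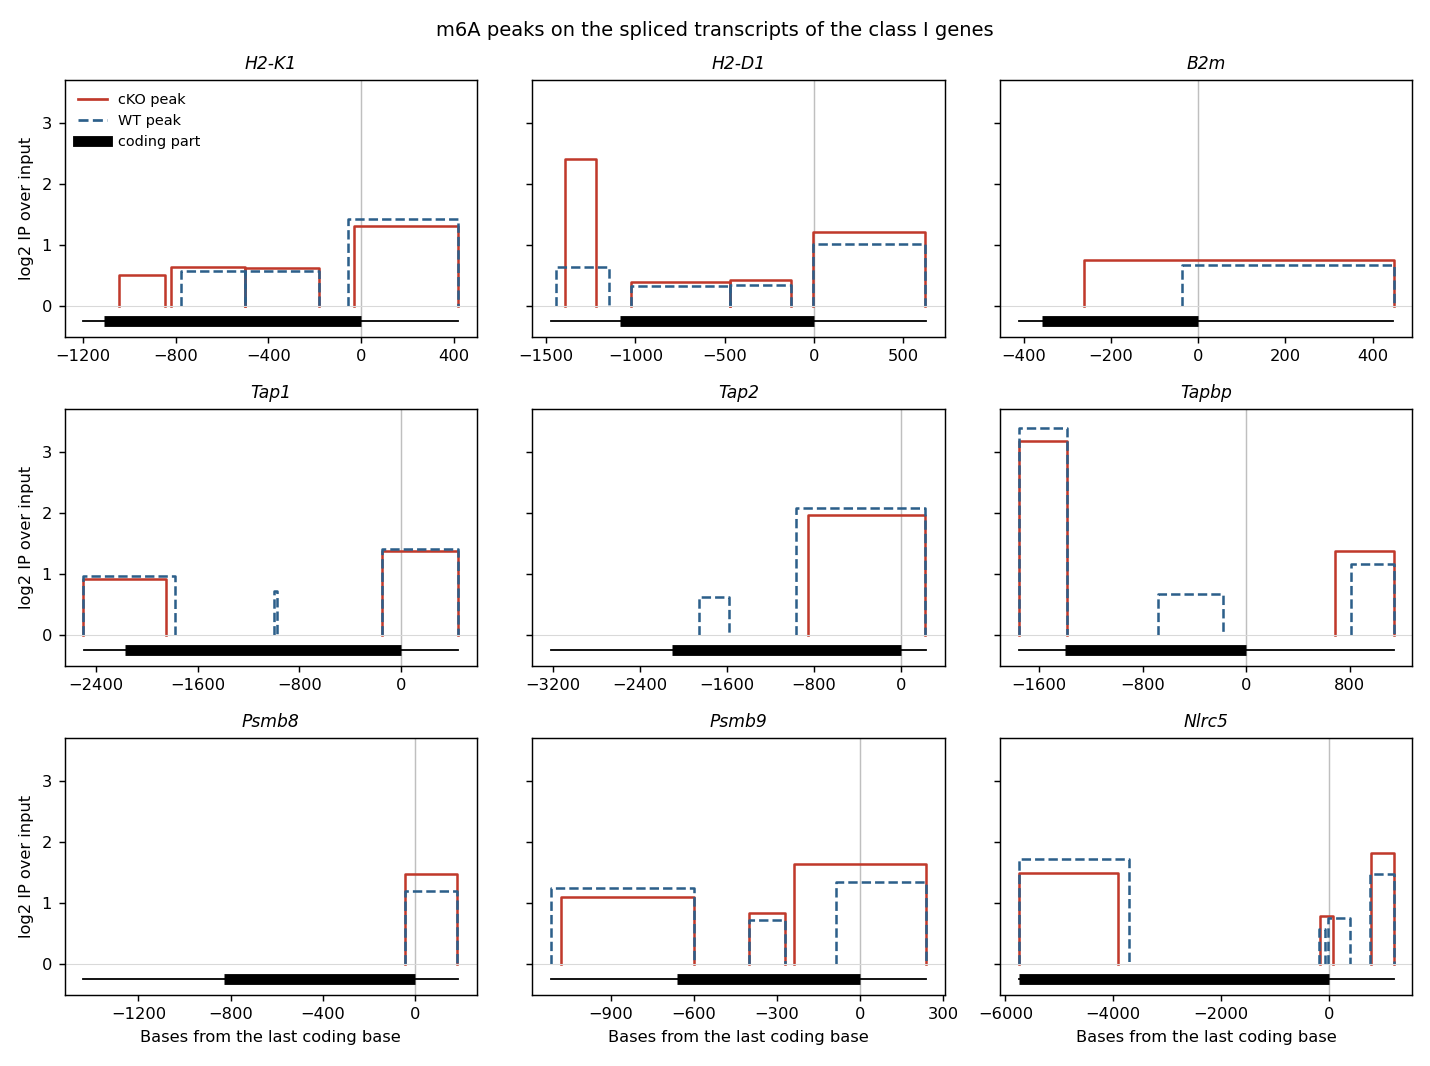
Log2 IP over input (vertical axis) of each listed peak along the spliced representative transcript of each gene (horizontal axis, bases from the last coding base, with 0 at the grey line). Solid red outlines are cKO peaks, dashed blue outlines WT peaks, and the thick black bar is the coding part. The highest outlines are the 5′ UTR peaks of Tapbp and, in the cKO, of H2-D1; in the other genes the highest outline reaches into the 3′ UTR, except the WT one of Nlrc5, which lies over the first coding bases. The 3 cKO and 2 WT peaks without bases on these exons are left out.

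Almost all of these sites were listed in both genotypes. Of the members' cKO peaks, 22 of 24 overlapped a WT peak on the same strand, against 71.3% of all cKO peaks, and 23 of 26 of their WT peaks overlapped a cKO peak, against 73.2% of all WT peaks. The 5 peaks without a partner were weak. In the cKO they were an exonic H2-K1 peak (log2 IP over input 0.51) and an intronic Tap1 peak (0.72). In the WT they were exonic peaks of Tap1 (0.72), Tap2 (0.63) and Tapbp (0.68). The authors' log2 IP over input had a median of 1.04 over the members' cKO peaks and 0.99 over their WT peaks, against 1.30 and 1.22 over the whole lists.

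H2-K1 and H2-D1 encode the classical class I heavy chains of this strain. At the 3′ UTR peak, which holds the stop codon in each gene, the log2 IP over input of H2-K1 was 1.30 in the cKO and 1.43 in the WT, and that of H2-D1 was 1.21 in the cKO and 1.01 in the WT. H2-K1 thus differed by -0.13 and H2-D1 by 0.19, cKO minus WT. Their exonic peaks were among the weakest of the lists, with at most 3.40% of all cKO peaks and 2.20% of all WT peaks below any of H2-K1's. The matched exonic peaks of H2-K1 were at 0.62 and 0.63 in the cKO, against 0.58 and 0.58 in the WT. Those of H2-D1 were at 0.39 and 0.43 in the cKO, against 0.33 and 0.34 in the WT, the 2 weakest of the members' WT peaks.

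The opposite directions at these 3′ UTRs belong to genes with very similar sequence. H2-K1 and H2-D1 were 91.5% identical over aligned coding bases and 90.1% over the 3′ UTR. Of the 150-base stretches of the H2-D1 transcript, 1.79% also occurred in another gene, H2-Q1, and none of the H2-K1 stretches did. Of 50-base stretches, 8.79% for H2-K1 and 14.3% for H2-D1 occurred in other genes, foremost H2-D1 for H2-K1 and H2-Q1 for H2-D1. How reads that match several genes were counted is not given in the sources used here, so the heavy chain values are uncertain to that extent.

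The widest gap between genotypes among the members was the 5′ UTR peak of H2-D1, whose log2 IP over input was 2.40 in the cKO and 0.63 in the WT, or 5.28-fold and 1.55-fold enrichment. This peak was not in the authors' deposited table of differential peaks. It was narrower in the cKO, 175 bases against 300 in the WT, and the adjusted p-values in the authors' deposited peak lists, 0.000134 in the cKO and 7.29e-05 in the WT, were the weakest of the H2-D1 peaks. The cKO peak, at chr17:35262805-35262979, ended 115 bases before the RefSeq start of H2-D1 and had exonic bases in 1 of the 4 GENCODE transcripts, whose 5′ UTR is longer.

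B2m encodes beta-2-microglobulin, the light chain. Its only peak covered the stop codon and the whole 448-base 3′ UTR, at a log2 of 0.76 in the cKO and 0.67 in the WT. In the cKO it reached further into the coding part, with 262 coding bases against 37 in the WT.

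Tap1 and Tap2 form the peptide transporter. Tap1 was close between genotypes, with 0.92 in the cKO and 0.97 in the WT at its 5′ UTR peak, and with 1.38 in the cKO and 1.41 in the WT at its 3′ UTR peak. Tap2 had 1 strong peak across the end of its coding part and the 3′ UTR, at 1.97 in the cKO and 2.08 in the WT. Both transporter genes thus had slightly lower values in the cKO at every matched peak of the lists, by 0.026 to 0.11. The authors' deposited table of differential peaks gave wider differences, -0.20 at the Tap1 5′ UTR peak and -0.27 at the Tap2 peak.

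Tapbp encodes tapasin, the chaperone that bridges the transporter and the empty class I molecule. Its 5′ UTR peak was the strongest of the 9 genes, with a log2 of 3.18 in the cKO and 3.39 in the WT, or 9.07-fold and 10.5-fold enrichment, above 94.8% of all cKO peaks and 94.7% of all WT peaks. This peak, at chr17:33916205-33919703 in the cKO and from chr17:33916180 in the WT, spanned 3499 bases in the cKO and 3524 bases in the WT. In each genotype only 372 of these were on exons of the representative transcript, its 5′ UTR and 16 coding bases. The 3′ UTR peak went the other way, at 1.38 in the cKO and 1.17 in the WT.

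Psmb8 and Psmb9 encode catalytic subunits that replace constitutive ones in the immunoproteasome. Their 3′ UTR peaks over the stop codon were higher in the cKO, at 1.47 against 1.20 in the WT for Psmb8 and 1.64 against 1.35 in the WT for Psmb9. This Psmb9 peak spanned 1212 bases in the cKO and 325 bases in the WT, so its 2 values cover unlike stretches. A second Psmb9 peak that the authors place in a 3′ UTR was at 0.84 in the cKO and 0.72 in the WT; its 130 exonic bases are coding in the representative transcript. The 5′ UTR peak of Psmb9 was at 1.09 in the cKO and 1.245 in the WT. It spanned 875 bases in the cKO and 1685 bases in the WT. Within Psmb9, the start and the end of the transcript therefore differed in opposite directions, as in Tapbp. At both ends of Psmb9, however, the values compare unlike stretches.

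Psmb9, Tap1, Psmb8 and Tap2 lie in this order within 34335 bases, at chr17:34181987-34216321. Psmb9 and Tap1 start head to head and share 212 bases on opposite strands. Their 5′ UTR peaks shared 177 bases in the cKO and 212 bases in the WT. The libraries keep strand by dUTP marking, per the labels' protocols, but whether the peaks were called by strand is not given in the sources used here, and without it the 5′ values of these neighbours cannot be told apart.

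Nlrc5 encodes the transactivator of the class I genes. Its 3 matched peaks split by position along the transcript. The outermost, which the authors place in the 5′ UTR, spans 35699 bases in the cKO and 35724 bases in the WT, introns included. The 5′ UTR peak was at 0.99 in the cKO and 1.21 in the WT, and the exonic peak at the start of the coding part at 1.49 in the cKO and 1.72 in the WT. Unlike both, the peak at the end of the 3′ UTR was higher in the cKO, at 1.82 in the cKO and 1.48 in the WT. Around the stop codon, 1 cKO peak (0.79) overlapped 2 WT peaks (0.58 and 0.76).

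**Figure D2:**
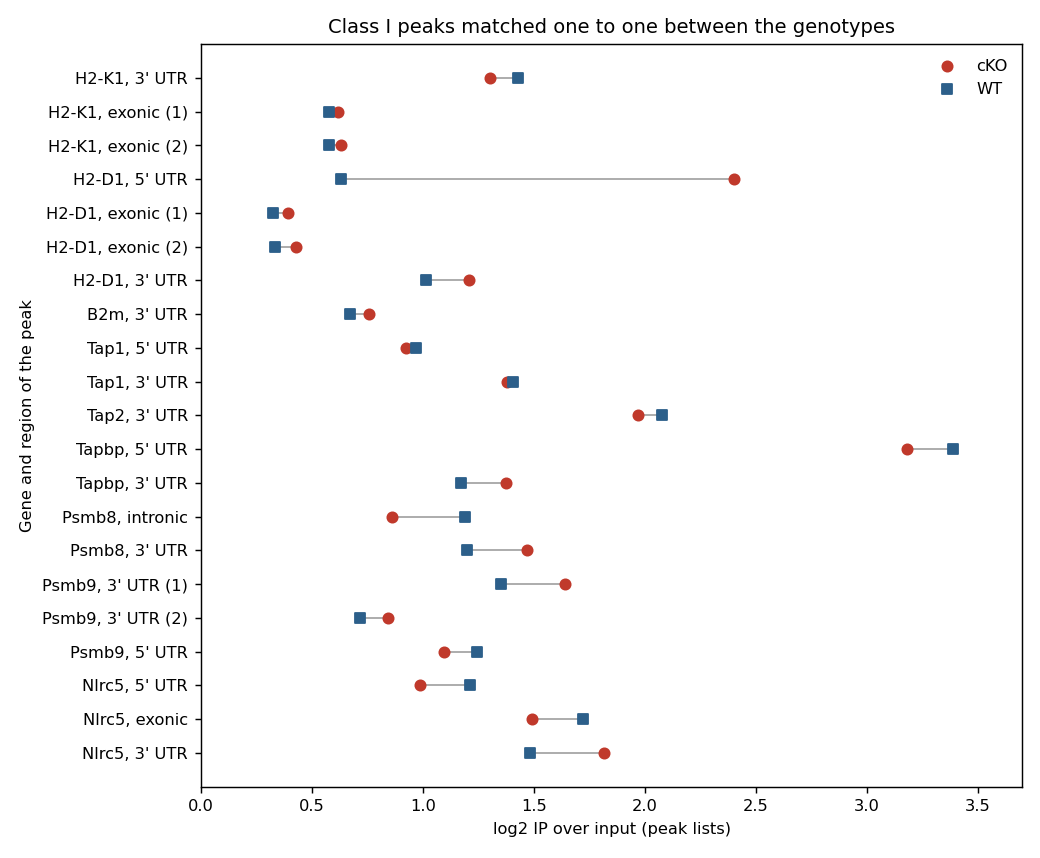
Log2 IP over input (horizontal axis) of the 21 class I peaks that overlapped one to one, with cKO values as red circles and WT values as blue squares, joined by a grey line; each row is 1 peak, named by gene and region. The H2-D1 5′ UTR peak stands apart, at 2.40 in the cKO and 0.63 in the WT, while the other pairs differ by at most 0.33.

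Over the 21 matched peaks, 12 were higher in the cKO and 9 were lower, and the median of their differences was 0.054, against 54.8% higher and a median of 0.042 over all 19387 matched peaks. In 3′ UTRs 7 of the 10 pairs were higher in the cKO (median 0.16), against 57.8% and 0.071 over all pairs. In 5′ UTRs 1 of 5 was higher, the H2-D1 peak, and the median was -0.15, against 46.0% and -0.029 over all pairs. The Psmb9 and Tap1 peaks among these overlap on opposite strands and may not be separate cases. Among exonic peaks 4 of 5 pairs were higher (median 0.054), against 50.4% and 0.0031 over all pairs, and the 1 intronic pair was lower (-0.33), against 50.1% higher over all pairs. None of these splits by region was tested. Of the 5 pairs with a mean log2 of at least 1.5, 3 were lower in the cKO, and of the other 16, 6 were lower; over all pairs the shares were 57.2% and 36.1%.

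All 9 genes had a peak in the authors' deposited table of differential peaks, against 49.9% of all genes with a listed peak. Of the 9, 8 had one at an adjusted p-value below 0.05 in the authors' deposited table, against 30.8% of genes; Tap1 was the exception. The authors' p-values come from 1 IP and 1 input library per genotype. Whether a peak enters that table can depend on transcript level, and the members were not matched to other genes by level here. Of the members' 15 differential peaks in the authors' deposited table, 9 were higher in the cKO, against 48.9% of all differential peaks, and 6 were lower, against 51.1%. Counting those the authors' deposited table gives at an adjusted p-value below 0.05, 8 were higher and 4 lower, where 45.7% of all such peaks were higher.

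By region, all 3 differential 5′ UTR peaks were lower in the cKO in the authors' deposited table, while 5 of 7 in 3′ UTRs were higher; over all its differential peaks, 62.9% of those in 5′ UTRs were lower and 51.5% of those in 3′ UTRs higher. The 5′ UTR differences in the authors' deposited table were -0.32 for Psmb9 (adjusted p = 0.158), -0.23 for Tapbp (adjusted p = 0.00762) and -0.20 for Tap1 (adjusted p = 0.166). The Psmb9 and Tap1 peaks overlap on opposite strands and cannot be told apart, so they may not be separate cases. The 3′ UTR peaks higher in the cKO were those of Psmb9 (0.31, adjusted p = 0.0418), Psmb8 (0.27, adjusted p = 0.000131), Tapbp (0.27, adjusted p = 1.58e-08), H2-D1 (0.17, adjusted p = 1.16e-31) and B2m (0.12, adjusted p = 2.16e-31) in the authors' deposited table. Those of Tap2 (-0.27, adjusted p = 0.000118) and H2-K1 (-0.16, adjusted p = 1.69e-18) were lower in the authors' deposited table. Among exonic peaks, Nlrc5 was lower by the authors' deposited table (-0.33, adjusted p = 0.0240), and H2-D1 (0.10, adjusted p = 7.38e-07) and an H2-K1 peak (0.065, adjusted p = 0.0190) were higher; the other exonic H2-K1 peak was at 0.050 (adjusted p = 0.138). Among the 9 genes, the smallest p-values in the authors' deposited table thus belonged to the 3 most abundant transcripts, B2m and the heavy chains, at differences of 0.12 to 0.17 in size.

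The differences were small beside those of all differential peaks. Only peaks at an authors' p below 0.05 are in that table, so the smallest size listed can depend on transcript level, which was not matched here. Their sizes ran from 0.050 to 0.52 on the log2 scale in the authors' deposited table, with a median of 0.23, against a median of 0.69 over all differential peaks, and 62.9% of all differential peaks were larger than the members' largest. That largest one was an intronic Psmb8 peak, which the authors' deposited table gives as 1.05 in the cKO and 0.53 in the WT, a difference of 0.52 (adjusted p = 0.0236), at chr17:34198762-34199086. The peak lists gave the opposite direction at this site, 0.86 in the cKO over 350 bases and 1.19 in the WT over 300 bases, so its direction depended on the deposited table read. The site is exonic in 1 of the 7 annotated Psmb8 transcripts, which retains the intron. The other 14 differential peaks of the members had the same sign in the lists and in the authors' deposited table.

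**Figure D3:**
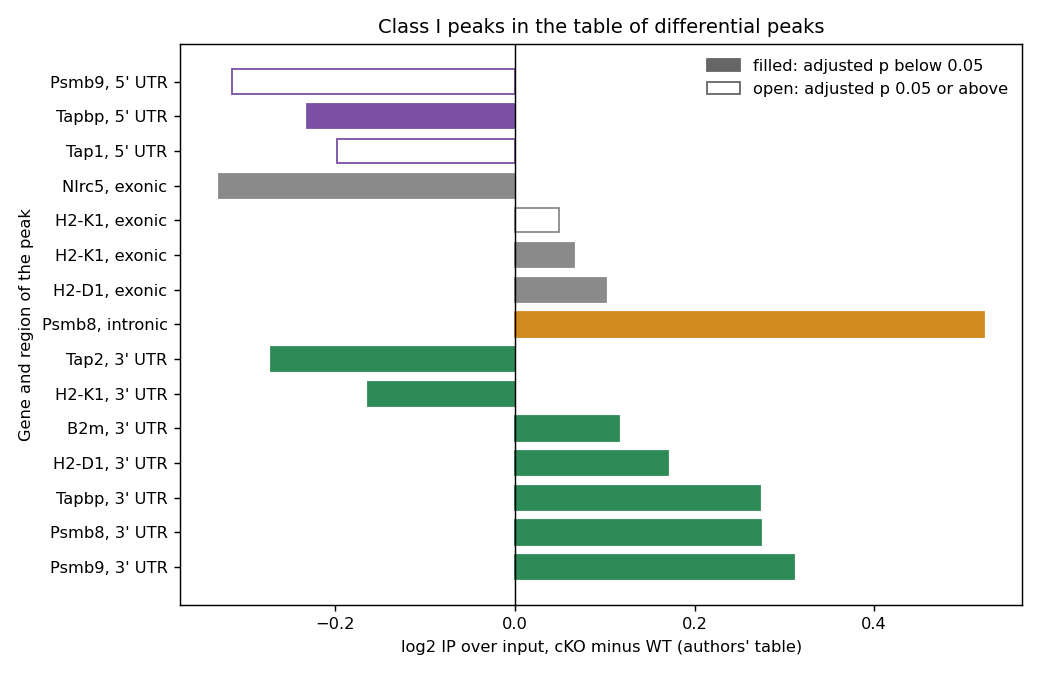
Difference of log2 IP over input, cKO minus WT (horizontal axis), for the 15 class I peaks in the authors' deposited table of differential peaks; each row is 1 peak, coloured by region, with filled bars at an adjusted p below 0.05 and open bars at 0.05 or above. The 3 bars of 5′ UTRs point left and 5 of the 7 bars of 3′ UTRs point right, with the largest, 0.52, at the intronic Psmb8 peak. The 5′ UTR peaks of Psmb9 and Tap1 overlap on opposite strands.

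Every one of the 9 transcripts had a lower input level in the cKO. Tapbp, Psmb8 and Psmb9 were at least 20% lower on the scale log2(FPKM + 1), and the other 6 were closer to the WT. B2m was at 4428 FPKM in the cKO and 4972 FPKM in the WT, the fifth highest of the genes with a value in the cKO and the third highest in the WT. H2-D1 was at 1944 FPKM in the cKO and 2162 FPKM in the WT, and H2-K1 at 982 FPKM in the cKO and 1094 FPKM in the WT. These 3 abundant subunits were 10.1% to 10.9% lower in the cKO.

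Among the genes that make and load peptides, the difference between the 2 libraries was larger for tapasin and the immunoproteasome than for the transporter, which was not tested. Tapbp was at 125 FPKM in the cKO and 183 FPKM in the WT, 31.9% lower. Psmb8 was at 42.4 FPKM in the cKO and 58.5 FPKM in the WT, 27.5% lower, and Psmb9 at 12.0 FPKM in the cKO and 15.9 FPKM in the WT, 24.2% lower. Tap2 was at 29.4 FPKM in the cKO and 34.8 FPKM in the WT, 15.6% lower, and Tap1 at 46.5 FPKM in the cKO and 50.0 FPKM in the WT, 6.98% lower. Nlrc5 had the lowest level of the 9, 9.68 FPKM in the cKO and 10.7 FPKM in the WT, 9.57% lower. The order of levels was the same in both genotypes save that Tap1 was above Psmb8 in the cKO and below it in the WT. Without replicates, no 2 neighbours in this order can be said to differ.

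**Figure D4:**
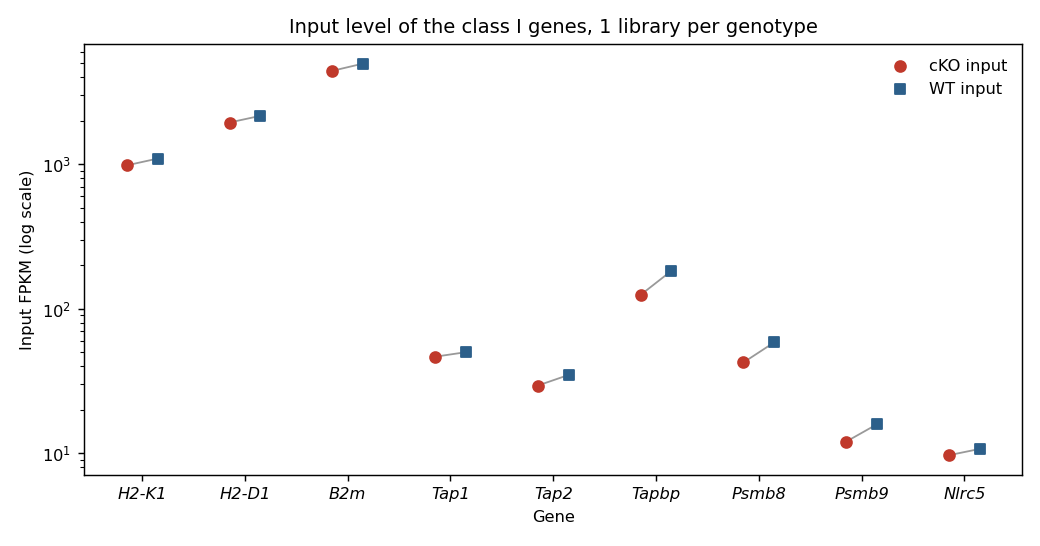
Input FPKM (vertical axis, log scale) of the 9 class I genes in 1 cKO library (red circles, left) and 1 WT library (blue squares, right) for each gene. All 9 cKO values lie below the WT values, with the widest steps at Tapbp, Psmb8 and Psmb9.

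The median input difference of the members was -0.17 on the log2 scale, cKO minus WT, against -0.020 over the 6079 genes at a mean of at least 1 FPKM, of which 54.2% were lower in the cKO. On that scale 3 of the 9 were at least 20% lower, against 7.24% of genes, and none was at least 25% higher, against 6.56%; none of the 9 reached 2-fold. The authors' deposited table gives an adjusted p-value (q) of 1 for all 9 genes.

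Transcript level and peak strength did not always differ in the same direction. Tapbp, Psmb8 and Psmb9 had the lowest input in the cKO relative to the WT, and at a 3′ UTR peak they were higher in the cKO, by 0.20, 0.27 and 0.29. Over all matched 3′ UTR pairs, 57.8% were higher in the cKO. Each of the 3 genes also had a matched peak that was lower in the cKO in the peak lists. These were the 5′ UTR peaks of Tapbp (-0.20) and Psmb9 (-0.15) and the intronic Psmb8 peak (-0.33), the last higher (0.52) in the authors' deposited table of differential peaks. Tap2 was lower in the cKO both in the input and at its 3′ UTR peak. As the peak values are already divided by the input, the 2 measures share the input library, and their relation was not tested.

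The rest of the pathway was read from lists that also contain genes without a value. Over all genes at a mean of at least 1 FPKM, 54.2% were lower in the cKO. Of 19 other class I and class I-like genes, 9 had an input value, and 7 of these were lower in the cKO (median -0.19). H2-M2, a nonclassical class I gene, was at 83.3 FPKM in the cKO and 173 FPKM in the WT (-1.04), and H2-T23, which encodes Qa-1, was at 180 FPKM in the cKO and 261 FPKM in the WT (-0.53). Cd1d1, a lipid-presenting relative, was at 1.39 FPKM in the cKO and 2.32 FPKM in the WT (-0.47), and H2-Q6 at 159 FPKM in the cKO and 207 FPKM in the WT (-0.38). In the authors' deposited table, 3 differential peaks of this list were higher and 10 lower in the cKO, where 48.9% of all differential peaks were higher. Of the 15 genes of this list with a listed peak, 9 had a differential peak, against 49.9% of all such genes. Several of these genes resemble one another closely, so their values are uncertain for the same reason as those of the heavy chains.

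Among 8 other proteasome genes, all 4 with a value were lower in the cKO (median -0.14). Psme2, a subunit of the PA28 activator induced by interferon-gamma, was at 84.6 FPKM in the cKO and 120 FPKM in the WT (-0.50). The constitutive catalytic subunits Psmb5 (-0.18), Psmb6 (-0.10) and Psmb7 (-0.058) differed less. All 4 differential peaks of this list were higher in the cKO in the authors' deposited table. They were in 3′ UTRs, where 51.5% of all differential peaks were higher. They lay in 4 of its 8 genes, where 49.9% of all genes with a listed peak had a differential one.

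The peptide loading and trimming list went the other way in the input: 7 of its 9 genes with a value, of 12, were higher in the cKO (median 0.12). Calr, the chaperone calreticulin, was at 153 FPKM in the cKO and 122 FPKM in the WT (0.32). Pdia3, the ERp57 of the loading complex, was at 107 FPKM in the cKO and 83.7 FPKM in the WT (0.35), and Sec61b, a subunit of the translocation channel, at 22.6 FPKM in the cKO and 17.4 FPKM in the WT (0.36). Erap1, the aminopeptidase that trims peptides in the endoplasmic reticulum, was at 11.6 FPKM in the cKO and 17.1 FPKM in the WT (-0.53). Calr and Pdia3 serve protein folding in general, while tapasin serves class I alone. In the authors' deposited table, 8 differential peaks of this list were higher and 3 lower in the cKO, where 48.9% of all differential peaks were higher. These peaks lay in 9 of the 12 genes, where 49.9% of all genes with a listed peak had a differential one.

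Among 14 regulators, 8 had a mean of at least 1 FPKM, and 7 of these were lower in the cKO (median -0.13). Irf1, an interferon-induced activator of class I genes, was at 21.4 FPKM in the cKO and 47.7 FPKM in the WT (-1.12). Irf8, a myeloid transcription factor, was at 20.4 FPKM in the cKO and 28.0 FPKM in the WT (-0.43). Jak2, a kinase of the interferon-gamma receptor, was at 43.7 FPKM in the cKO and 49.3 FPKM in the WT (-0.17). In the authors' deposited table, 5 differential peaks of this list were higher and 11 lower in the cKO, where 48.9% of all differential peaks were higher. These peaks lay in 9 of the 14 genes, where 49.9% of all genes with a listed peak had a differential one. The authors' deposited table gives a q of 1 for the input of every gene named from these 4 lists.

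Set beside the 30 genes of these lists with a mean of at least 1 FPKM, the input difference of Tapbp was nearest to those of H2-T23, Erap1 (-0.53) and Psme2. Near that of Psmb8 were those of Cd1d1 and Irf8, and that of B2m was nearest to Jak2, H2-T24 (-0.18) and Psmb5. This likeness is the absolute gap between log2 differences of 1 library pair.

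**Figure D5:**
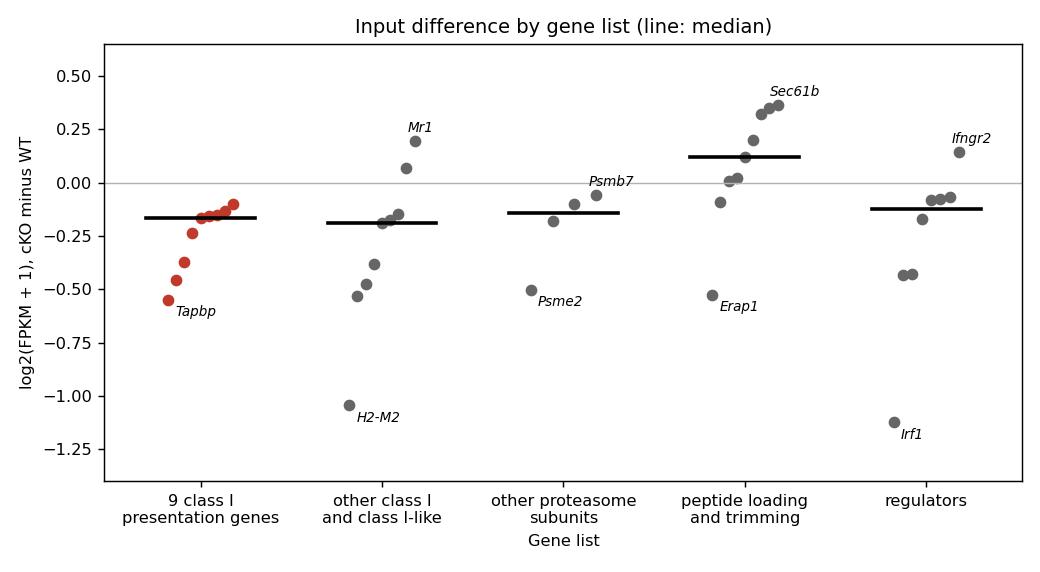
Input difference on the log2(FPKM + 1) scale, cKO minus WT (vertical axis), for the 9 class I presentation genes (red) and the genes with a mean of at least 1 FPKM in 4 other lists of the pathway (grey); each point is 1 gene and each line a list's median. The peptide loading and trimming list has its median above 0 (0.12), and the other lists have theirs below 0.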

How the data were processed

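Mouse macrophage RNA was measured in 4 libraries, 1 IP and 1 input per genotype, grouped by title and genotype. The submitters' processing notes name mm10, edgeR, StringTie, ChIPseeker, HOMER, HISAT2 and fastp, without roles; which tool called peaks, and how IP was scaled to input, is not given in the sources used here. Per the file headers, the deposited peak lists hold log2 IP over input, which are the authors' values, with raw and adjusted p-values; the deposited table of differential peaks holds their difference. Input levels are FPKM that the authors deposited, held only for genes with a differential peak. No read totals were used, and depth is unknown.

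Starts count from 0 in the tables and are given from 1. Peaks were matched on the same strand by at least 1 bp, and one to one for differences. Input differences are log2(FPKM + 1), cKO minus WT, at a mean of at least 1 FPKM, where differences of genes with low values come out too small. Motifs were searched along the RNA, on its own strand, in the exonic part of each peak, on 1 GENCODE M21 transcript per gene (APPRIS principal first); GGAC matches overlap DRACH. Python 3.11.15, pandas 2.3.3, numpy 2.4.6 and Biopython 1.88 were used, and the steps were tested on simulated data. No p-value was computed.

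The members and lists were chosen with earlier results of these data known. All 9 members are named, and up to 4 genes of each other list by absolute input difference, plus the 3 nearest to a member's; some values of list genes are not reported here. Alternatives varied the peak threshold, the overlap, the table used, the pseudocount, the filter, the centring and the motif.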

Additional observations from a re-analysis of the deposited data

How the results depend on the processing

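The limits are those of 1 library per genotype: no difference has a replicate check, depth is unknown, and input values are held only for genes with a differential peak. No paired analysis was possible because each group has 1 library. With a log2 IP over input of at least 1, 12 class I peaks in the cKO and 13 in the WT were left, against 24 and 26; in the authors' deposited peak lists all 24 and 26 had an adjusted p below 0.05. The median peak difference of 0.054 over the 21 matched pairs stands beside 0.065 over the 15 peaks of the authors' deposited table of differential peaks. That table holds only peaks at an authors' p below 0.05, so the 2 medians cover unlike sets of peaks. Over the matched pairs the median was 0.047 without the H2-D1 5′ UTR peak, an alternative chosen after seeing the data. The median input difference of -0.17 was -0.15 once centred on the median of all genes tested, which is -0.020. It was -0.17 with pseudocounts of 0.1 and 5, without the filter, and as a plain log2 ratio of FPKM, the last chosen after seeing the data. The single input differences of the 9 genes were below 0 in all 36 combinations of gene and alternative setting, from -0.55 to -0.082. Only the centring could have changed a sign, as another pseudocount or a plain ratio cannot. The motif GGAC left the class I counts within 1.5 times. So did an overlap of 50% of both peaks, at 21 of 24 cKO peaks and 21 of 26 WT peaks, while over all peaks the overlapping share was 46.1% of the cKO list and 48.8% of the WT list, against 71.3% and 73.2% at 1 bp. Exonic blocks of the peaks were not run, since the files used here give none.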
